A study of Rattus norvegicus with 6 samples.

Results

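The genes described here are those that the deposited annotation of a rat RNA-seq table places in the KEGG group "Protein processing in endoplasmic reticulum", without Atf4, Ddit3, Nfe2l2, Bcl2, Bax and Bak1. The group holds 162 of the table's 32623 genes, and 156 remained after those 6 were left out. The samples were cultures of C6, an established rat glioma line grown in serum-supplemented medium, treated for 24 h with the vehicle DMSO (3 libraries) or with forskolin (FSK, 3 libraries), and the sources used here give no forskolin dose. Forskolin activates adenylyl cyclase and raises cAMP. Total RNA was sequenced in bulk, and the same line, medium and duration were shared by both groups. The series asks how C6 cells respond to activation of the cAMP pathway. The labels do not say whether the 3 libraries of a group came from separate cultures, so p-values measure the spread between these libraries, which may be technical.

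Proteins that enter the secretory pathway are threaded into the ER through the Sec61 channel, receive N-linked glycans from the oligosaccharyltransferase, and fold with the help of the Hsp70 chaperone BiP (Hspa5), the Hsp90 chaperone Grp94 (Hsp90b1), the lectin chaperones calnexin and calreticulin, and protein disulfide isomerases. Folded cargo leaves in vesicles with a COPII coat. Misfolded protein is trimmed of mannose, moved back to the cytosol, ubiquitinated and degraded by the proteasome, a route called ER-associated degradation (ERAD). Ire1 (Ern1), Perk (Eif2ak3) and Atf6 sense unfolded protein in the ER and raise the expression of many of these genes, a program called the unfolded protein response. Glia secrete matrix and signalling proteins through this route.

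Of the 156 genes, 146 had enough counts to be tested. By edgeR's quasi-likelihood test at a Benjamini-Hochberg adjusted p of 0.05, 27 rose in FSK, 46 fell and 73 did not pass. Thus 18.5% of the tested members rose, against a background of 19.6% of all 14166 genes tested, and 31.5% fell, against 19.8%. A change in either direction was called for 50.0% of the members and 39.4% of all genes. The members were of higher level than all genes tested (median 43.4 and 7.94 FPKM in DMSO). Among the 8700 genes with at least 5 FPKM in the higher group, adjusted over these alone, 28.1% rose and 22.9% fell. A change in either direction was called for 51.1% of them, close to the share of the members. The median log2 fold change, FSK over DMSO, was -0.07 over the members and -0.01 over all genes tested. In bulk RNA, fewer cells of a type and less RNA per cell cannot be told apart. Most changes were small. Adding a 1.5-fold minimum left 4 members that rose (background 7.23%) and 11 that fell (background 9.94%). With a 2-fold minimum, 2 rose, Ppp1r15a and Fbxo2 (background 3.44%), and 3 fell, Casp12, Map3k5 and Ero1b (background 4.26%). Fbxo2, Map3k5 and Ero1b were singled out after their values were seen. For 87 members the 3 FSK libraries did not overlap the 3 DMSO libraries, which was also true of 53.0% of all genes tested. The members' summed counts were between 2.90% and 2.93% of the library total in DMSO and between 2.68% and 2.73% in FSK. These shares carry no TMM factor, the scaling used for the log2 fold changes. With that factor applied, the difference was smaller. The sum was then 28450 ± 356 CPM in DMSO and 27680 ± 109 CPM in FSK (mean ± SD), a ratio of 0.973. Among the 73 changed members, 51 kept their call under each of 14 other settings of the analysis in which they were tested. Of those 51, 20 were higher and 31 lower in FSK. The other 22 are named under their role with the settings that ended their call, except that calls lost under a replicate block are named once, with the effects of the processing. The 14 settings leave out the 1.5-fold minimum. Under the 5 FPKM minimum, genes below 5 FPKM in both groups were not tested.

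**Figure D1:**
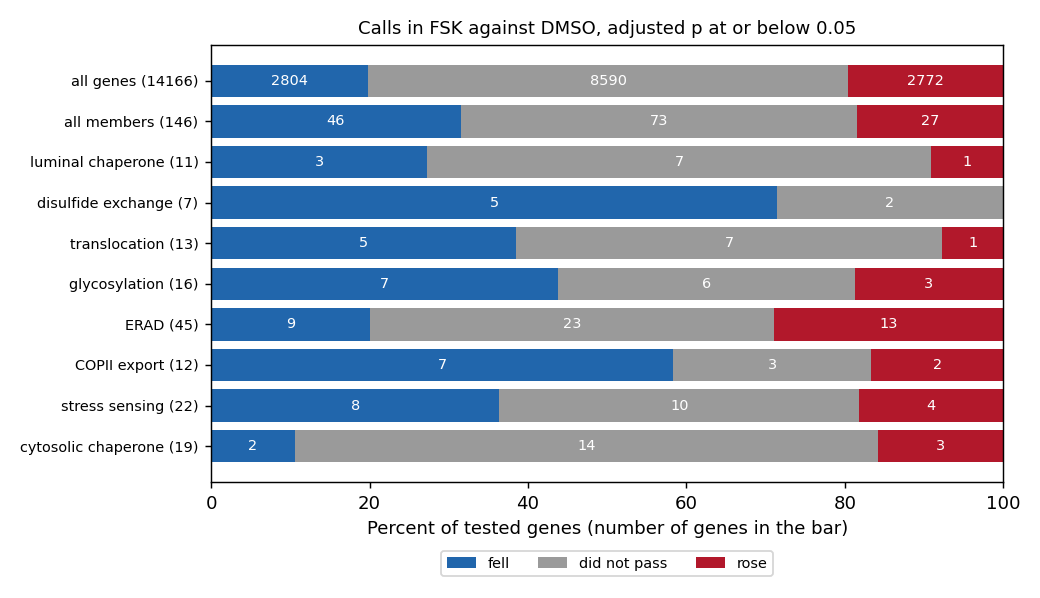
Share of tested genes that fell, did not pass or rose in FSK against DMSO at an adjusted p of 0.05 or below (edgeR), for all genes, all members and the members by role, with the number of genes written in each segment. Falls made up 58.3% of the COPII export genes and 71.4% of the disulfide exchange genes tested, against 19.8% of all genes. Of the ERAD genes, 28.9% rose, against 19.6% of all genes. Among genes with at least 5 FPKM in the higher group (not drawn), 28.1% rose, close to the ERAD share, and 22.9% fell.

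**Figure D2:**
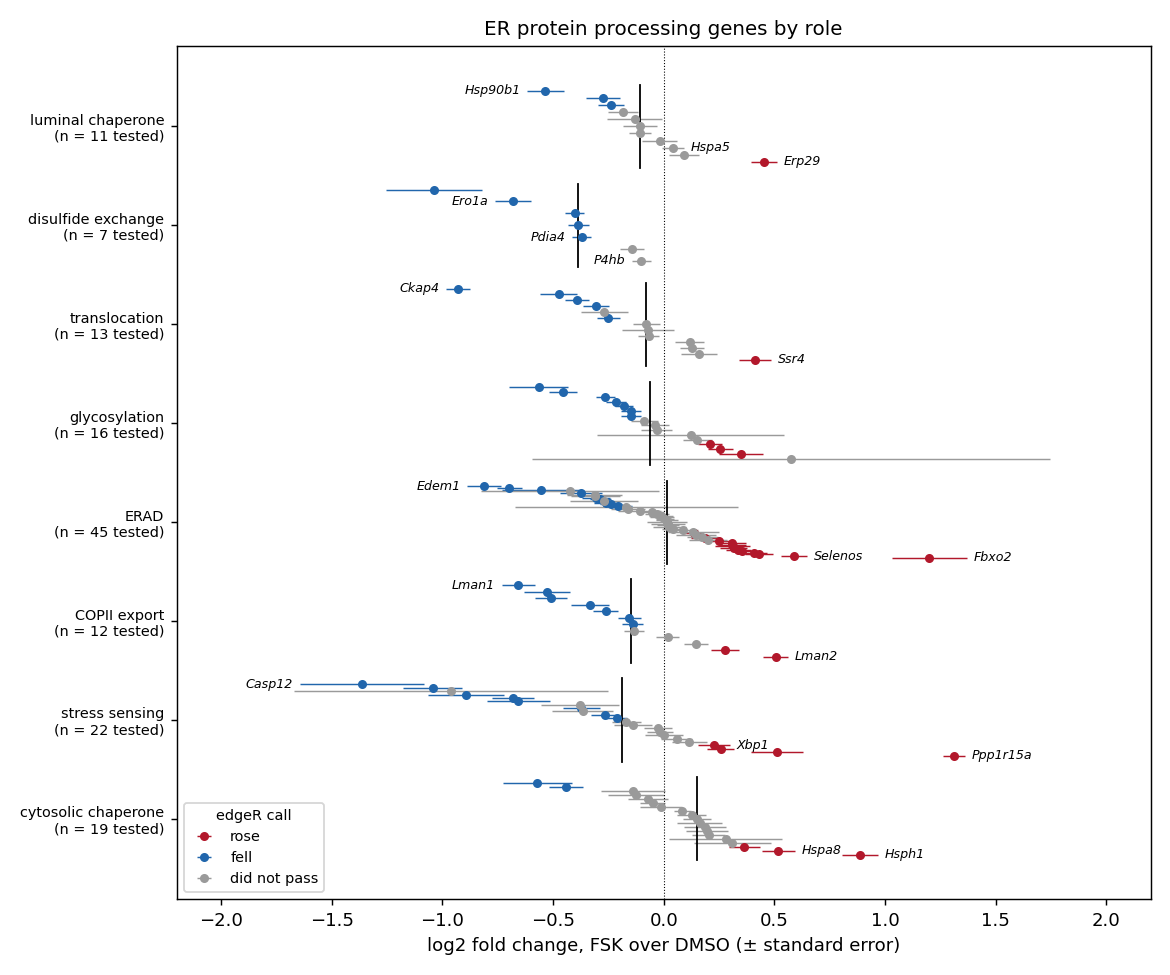
Log2 fold change, FSK over DMSO, of the 146 tested members except Ppa1, grouped by role, with bars for the standard error, colours for the edgeR call and a black line at each role's median. The medians run from -0.39 for disulfide exchange to 0.15 for the cytosolic chaperones, and every role except disulfide exchange holds genes on both sides of 0.

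Levels of different genes are compared here as FPKM, which divides counts by transcript length and library depth. The FPKM values carry no TMM factor and the log2 fold changes do, so FPKM places FSK slightly lower against DMSO. The median member stood at 43.4 FPKM in DMSO, against 7.94 FPKM for all genes tested. The cytosolic Hsp90-beta gene Hsp90ab1 had 1177 ± 13.9 FPKM in DMSO and 1191 ± 12.6 FPKM in FSK, Calr had 953 ± 34.9 FPKM in DMSO and 845 ± 20.2 FPKM in FSK and P4hb had 683 ± 6.42 FPKM in DMSO and 607 ± 13.4 FPKM in FSK. Those 3 genes of high level changed little (0.09 ± 0.04, -0.11 ± 0.05 and -0.10 ± 0.04 log2) and did not pass. Larger folds sat lower on this scale: Casp12 had 5.63 ± 2.16 FPKM in DMSO and 2.07 ± 0.448 FPKM in FSK, and Map3k5 had 1.91 ± 0.148 FPKM in DMSO and 0.884 ± 0.0371 FPKM in FSK. Ckap4 joined a high level with a large fall, at 189.6 ± 6.74 FPKM in DMSO and 95.1 ± 2.59 FPKM in FSK.

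**Figure D3:**
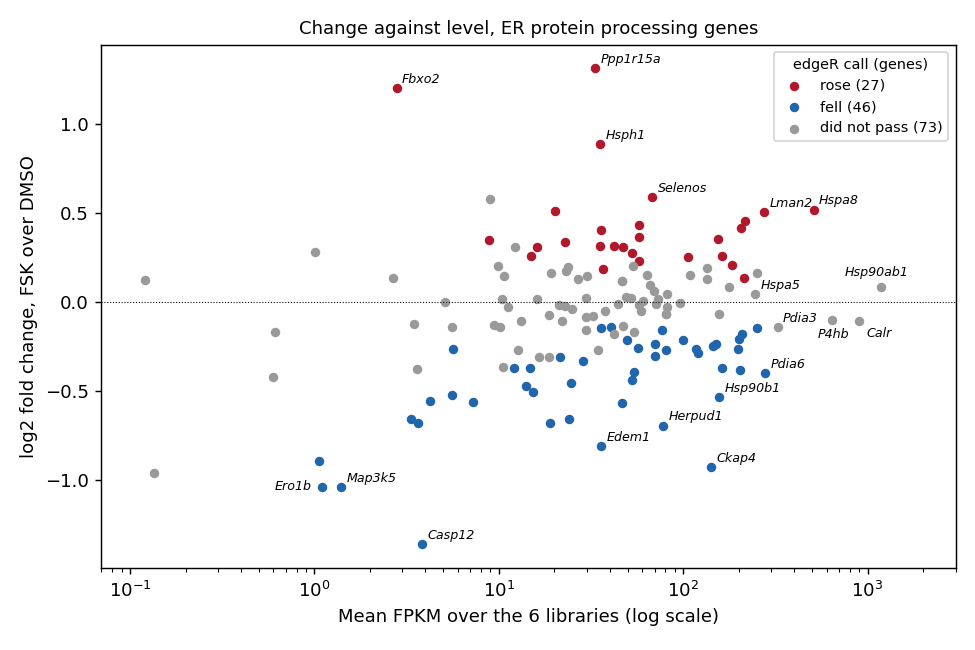
Log2 fold change, FSK over DMSO, against mean FPKM over the 6 libraries (log axis) for each of the 146 tested members, coloured by edgeR call. Hsp90ab1, Calr and P4hb at the right lie near 0, whereas Casp12, Ero1b and Map3k5, the 3 that fell at least 2-fold, lie at the left.

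Of the 11 luminal chaperones and co-chaperones, 1 rose (background 19.6%), 3 fell (background 19.8%) and 7 did not pass. The median log2 fold change of the role was -0.11. Its summed level was 4442 ± 83.6 CPM in DMSO and 4127 ± 66.0 CPM in FSK (mean ± SD, n = 3). CPM is the count scaled by library size and TMM factor. Hspa5, which encodes BiP and is a standard readout of the unfolded protein response, stood at 646, 618 and 641 CPM in the DMSO libraries and 666, 674 and 621 CPM in the FSK libraries. The groups overlapped, and the difference did not pass (0.04 ± 0.05, adjusted p = 0.528). The adjusted p for Hspa5 was 0.263 to 0.816 over the 14 other settings. Hsp90b1, the Hsp90 of the ER lumen, stood at 578, 562 and 667 CPM in the DMSO libraries and 454, 405 and 388 CPM in the FSK libraries. Each FSK library lay below each DMSO library, a 1.45-fold fall (-0.53 ± 0.08, adjusted p = 0.00153). The FPKM ratio of Hsp90b1 to Hspa5 was 0.760 ± 0.0647 in DMSO and 0.510 ± 0.0331 in FSK, a pair chosen after its values were seen. Both genes carry the ER stress response element upstream of their start, the letters CCAAT, 9 further bases and CCACG. Their promoters are shown because the element is the best-known binding site of the unfolded protein response. The sequences are from RefSeq, written 5′ to 3′ along the gene, from 180 bases upstream to the base before an annotated start, with the element in capitals. In Hsp90b1 the first copy reads along the gene and the second on the opposite strand.
Hspa5, GRCr8 chr3:38452836-38453015, plus strand: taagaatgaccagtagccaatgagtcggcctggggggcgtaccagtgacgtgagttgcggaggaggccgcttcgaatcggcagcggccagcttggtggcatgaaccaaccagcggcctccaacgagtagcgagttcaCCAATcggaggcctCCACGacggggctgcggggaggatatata
Hsp90b1, GRCr8 chr7:23012294-23012473, minus strand: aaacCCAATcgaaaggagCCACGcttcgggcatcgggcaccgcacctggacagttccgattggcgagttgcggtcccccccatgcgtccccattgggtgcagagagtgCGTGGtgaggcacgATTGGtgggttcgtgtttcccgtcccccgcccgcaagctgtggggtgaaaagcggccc

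Calr, the calcium-binding lectin calreticulin, stood at 1878, 1772 and 1692 CPM in the DMSO libraries and 1611, 1697 and 1656 CPM in the FSK libraries. The groups overlapped and the difference did not pass (-0.11 ± 0.05, adjusted p = 0.129), although it passed without DMSO replicate 3 and under both limma settings on FPKM (0.0197 to 0.278 over the 14 settings). Canx, its membrane-bound relative calnexin, fell by 0.27 ± 0.08 (adjusted p = 0.0226) on the log2 scale, and lost the call without DMSO replicate 2 or 3 or FSK replicate 2 or 3 and after removal of a trend with transcript length, where its log2 fold change was -0.15 (adjusted p 0.00173 to 0.103 over the 14 settings). Dnajb11, an Hsp40 that serves BiP, fell by 0.24 ± 0.06 (adjusted p = 0.0142) and lost its call without FSK replicate 2 (0.00222 to 0.0646). Without that library the role kept 1 fall in place of 3, that of Hsp90b1. Erp29, a thioredoxin-fold protein without the active-site cysteines of a disulfide isomerase, was the one gene of the role that rose: it stood at 249.5, 229 and 218 CPM in the DMSO libraries and 318, 315 and 322 CPM in the FSK libraries. The FSK libraries lay within a narrow range above each DMSO library, a 1.37-fold rise (0.46 ± 0.06, adjusted p = 0.000615). The other BiP partners did not pass: Hyou1, which exchanges its nucleotide, was at 0.09 ± 0.07 log2, Sil1 with the same task at -0.02 ± 0.08, Dnajc3 at -0.11 ± 0.08, Dnajc1 at -0.13 ± 0.12 and Dnajc10 at -0.18 ± 0.07.

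Disulfide exchange had 5 falls (background 19.8%) and no rise (background 19.6%) among 7 genes. All 7 had non-overlapping groups, lower in FSK, and 53.0% of all genes tested had non-overlapping groups in either direction. The median log2 fold change was -0.39, and the summed level went from 4044 ± 14.1 CPM in DMSO to 3462 ± 34.8 CPM in FSK. Ero1a, the oxidase that passes electrons from disulfide isomerases to oxygen, stood at 51.6, 56.1 and 58.4 CPM in the DMSO libraries and 32.0, 37.4 and 34.1 CPM in the FSK libraries. Its FSK libraries were 1.61-fold lower on average (-0.68 ± 0.08, adjusted p = 0.000419). Ero1b, its second form, was rare, with 4.37, 4.11 and 6.08 CPM in the DMSO libraries and 2.66, 1.98 and 2.44 CPM in the FSK libraries, and was lower in each FSK library (-1.04 ± 0.22, adjusted p = 0.00633). The gene Gpr137b lies on the opposite strand over part of Ero1b and had 314% of its counts. The strand rule of the counting is not given in the sources used here, so the reads of these 2 genes may not be separable. Pdia4, a disulfide isomerase with several catalytic domains, stood at 439, 427 and 449 CPM in the DMSO libraries and 336, 345 and 336 CPM in the FSK libraries. Replicates lay close together and the groups far apart, a fall of 0.37 ± 0.04 (adjusted p = 0.000392) log2. Pdia6 fell by 0.40 ± 0.04 (adjusted p = 0.000235) and Txndc5 by 0.39 ± 0.05 (adjusted p = 0.000540). The isomerases P4hb and Pdia3, both of high level, did not pass. P4hb, the isomerase PDI itself and a subunit of prolyl 4-hydroxylase, stood at 1713, 1725 and 1667 CPM in the DMSO libraries and 1530.2, 1609 and 1622 CPM in the FSK libraries and did not pass (-0.10 ± 0.04, adjusted p = 0.0947). Pdia3, which works with calnexin and calreticulin on glycoproteins, had 656 ± 27.6 CPM in DMSO and 595 ± 29.7 CPM in FSK and did not pass (-0.14 ± 0.05, adjusted p = 0.0709). Both passed under the limma settings on FPKM, and P4hb also without DMSO replicate 3 (adjusted p 0.0109 to 0.254 for P4hb and 0.0308 to 0.233 for Pdia3 over the 14 settings). Relative to P4hb, the FPKM of Ero1a was 0.0347 ± 0.00261 in DMSO and 0.0232 ± 0.00139 in FSK.

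**Figure D4:**
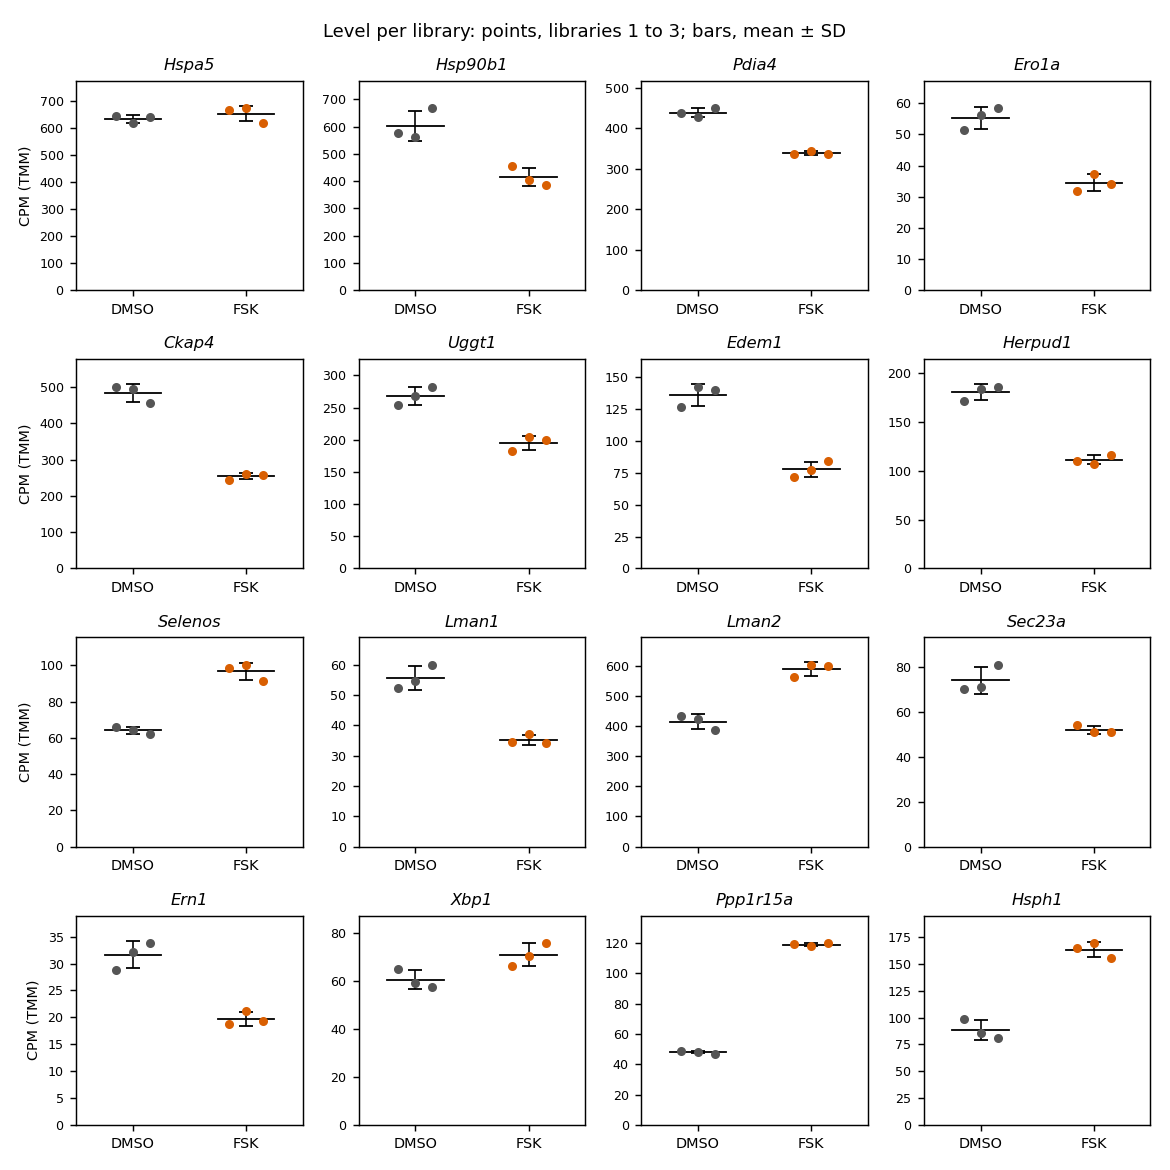
Level in CPM (TMM-scaled) of 16 members in each of the 6 libraries, with bars for mean ± SD (n = 3) and every axis starting at 0. Hspa5 overlaps between the groups, whereas in the other 15 panels the FSK points lie wholly above or below the DMSO points. Ppp1r15a has all FSK libraries between 118 and 120.1 CPM and all DMSO libraries between 47.1 and 48.5 CPM.

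Among the 13 genes of translocation and of ER membrane attachment, 1 rose (background 19.6%), 5 fell (background 19.8%) and 7 did not pass (median -0.08). The summed level was 2411 ± 31.1 CPM in DMSO and 2104 ± 13.7 CPM in FSK. Ckap4, a membrane protein that links the ER sheet to microtubules, stood at 502, 494 and 456 CPM in the DMSO libraries and 244, 260.1 and 259 CPM in the FSK libraries. Each FSK library was well below each DMSO library, a 1.90-fold fall (-0.93 ± 0.05, adjusted p = 1.09e-05). Rrbp1, the ribosome receptor of the rough ER, fell by 0.39 ± 0.05 (adjusted p = 0.000914) log2. Sec63, which recruits BiP to the channel, fell by 0.47 ± 0.08 (adjusted p = 0.00284), and was at -0.30 with a call after removal of the length trend. Of the channel subunits, Sec61b fell by 0.25 ± 0.05 (adjusted p = 0.00617), while Sec61a1, the pore, had 402 ± 24.5 CPM in DMSO and 439 ± 8.50 CPM in FSK (0.13 ± 0.05, adjusted p = 0.10) and Sec61g was at 0.16 ± 0.08, adjusted p = 0.153, both without a call, and Sec61a2 (-0.08 ± 0.06), Sec62 (-0.07 ± 0.12) and Tram1 (0.12 ± 0.07) did not pass either. The translocon-associated protein complex had 1 fall and 1 rise among its 4 genes. Ssr1 fell by 0.31 ± 0.06 (adjusted p = 0.00493), Ssr2 (-0.07 ± 0.05) and Ssr3 (-0.27 ± 0.11) did not pass, and Ssr4 stood at 146, 133 and 121 CPM in the DMSO libraries and 177, 173 and 181 CPM in the FSK libraries. The FSK libraries of Ssr4 all lay above the DMSO libraries (0.41 ± 0.07, adjusted p = 0.00282). Without DMSO replicate 1 the number of rises in this role was 2 in place of 1.

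Glycosylation and glycan trimming had 3 rises (background 19.6%) and 7 falls (background 19.8%) among 16 genes, with 6 that did not pass and a median of -0.06. The oligosaccharyltransferase, which moves the glycan from its lipid carrier to the protein, was lower in 4 accessory or catalytic subunits: Rpn1 fell by 0.26 ± 0.04 (adjusted p = 0.00219) log2, Rpn2 by 0.18 ± 0.04 (adjusted p = 0.00811), Ddost by 0.15 ± 0.05 (adjusted p = 0.0335) and the catalytic subunit Stt3a by 0.15 ± 0.05 (adjusted p = 0.0379). Stt3b, the alternative catalytic subunit, had 102 ± 3.66 CPM in DMSO and 99.5 ± 6.59 CPM in FSK and did not pass (-0.04 ± 0.06, adjusted p = 0.668). Tusc3, an oxidoreductase subunit of the Stt3b form, was at -0.09 ± 0.06, adjusted p = 0.296. Dad1, a small subunit of the same enzyme, rose by 0.26 ± 0.06 (adjusted p = 0.00771). Ddost lost its call without DMSO replicate 1 or 2 or FSK replicate 1, 2 or 3 (adjusted p 0.00285 to 0.128 over the 14 settings). Stt3a lost its call without DMSO replicate 2 or 3 or FSK replicate 1, 2 or 3, and its log2 fold change was 0.10 after removal of a trend with transcript length (0.0166 to 0.239). The FPKM ratio of Stt3a to Stt3b was 1.48 ± 0.0173 in DMSO and 1.38 ± 0.0660 in FSK.

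Uggt1 re-glucosylates incompletely folded glycoproteins so that they bind calnexin again, and acts as the folding sensor of that cycle. It stood at 254, 267 and 283 CPM in the DMSO libraries and 183, 204 and 199.6 CPM in the FSK libraries. Its FSK libraries were all below its DMSO libraries, a 1.37-fold fall (-0.46 ± 0.06, adjusted p = 0.000844). After removal of the length trend its log2 fold change was -0.19, still a call. The 2 subunits of glucosidase II, which trims the glucose residues that Uggt1 restores, moved in opposite directions. The catalytic subunit Ganab fell by 0.22 ± 0.05 (adjusted p = 0.00647) log2 and the regulatory subunit Prkcsh rose by 0.21 ± 0.05 (adjusted p = 0.0149). Ganab lost the call after removal of the length trend, at -0.14 (0.000259 to 0.0662 over the 14 settings), and Prkcsh lost it without FSK replicate 3 (0.00144 to 0.0563). Of the class I mannosidases, Man1a2 fell by 0.56 ± 0.13 (adjusted p = 0.0112), Man1c1 rose by 0.35 ± 0.10 (adjusted p = 0.0244), and Man1b1 (0.15 ± 0.07, adjusted p = 0.104) and Man1a1 (0.12 ± 0.42, adjusted p = 0.849) did not pass. Man1c1 lost its call without DMSO replicate 2 or 3 or FSK replicate 1 or 3 and under both limma settings (0.00429 to 0.0897). Without FSK replicate 3, 1 gene of this role rose in place of 3. Mogs, glucosidase I, removes the first glucose and was at -0.03 ± 0.07, adjusted p = 0.767. A second gene described in the table as mannosyl-oligosaccharide glucosidase, LOC103692171, had nearly the same counts as Mogs in 5 libraries and 0 in DMSO replicate 1 (Mogs 2264 counts there), so its level is uncertain and it did not pass (0.58 ± 1.17, adjusted p = 0.732).

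ERAD was the largest role, with 49 genes of which 45 were tested. Of these, 13 rose (background 19.6%, or 28.1% of genes with at least 5 FPKM in the higher group). A further 9 fell (background 19.8%, or 22.9% of genes with at least 5 FPKM) and 23 did not pass. The median log2 fold change was 0.02, and the summed level was 5015 ± 8.85 CPM in DMSO and 5052 ± 24.0 CPM in FSK. Edem1, Herpud1 and Edem3 had the lowest log2 fold changes of the role. Edem1, which speeds mannose trimming of misfolded glycoproteins, stood at 126, 142 and 139 CPM in the DMSO libraries and 71.9, 76.8 and 83.8 CPM in the FSK libraries. No FSK library came near the DMSO range, a 1.76-fold fall (-0.81 ± 0.08, adjusted p = 0.000112). Edem3, a mannosidase of the same family, fell by 0.55 ± 0.17 (adjusted p = 0.0353) log2, but lost the call without DMSO replicate 2 or 3 or FSK replicate 1, 2 or 3 (adjusted p 0.00626 to 0.107 over the 14 settings). A gene on the opposite strand had 33.9% of the counts of Edem3. Edem2, which starts the trimming, had 56.7 ± 5.56 CPM in DMSO and 57.5 ± 1.59 CPM in FSK and did not pass (0.02 ± 0.08, adjusted p = 0.866). Per length, the ratio of Edem1 to Edem2 was 1.56 ± 0.230 in DMSO and 0.866 ± 0.0520 in FSK. Os9, a lectin that hands trimmed glycoproteins to the ligase complex, rose by 0.25 ± 0.05 (adjusted p = 0.00779), and Erlec1, its relative, was at -0.27 ± 0.16, adjusted p = 0.206.

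Herpud1 is a membrane adaptor of the Hrd1 ubiquitin ligase and a well-known target of ER stress. It stood at 171, 184 and 186 CPM in the DMSO libraries and 111, 107 and 117 CPM in the FSK libraries. All FSK libraries were lower by a wide margin, a 1.62-fold fall (-0.70 ± 0.06, adjusted p = 6.48e-05). Its promoter is shown for the form II ER stress response element in capitals, ATTGG, 1 further base and CCACG.
Herpud1, GRCr8 chr19:10614708-10614887, minus strand: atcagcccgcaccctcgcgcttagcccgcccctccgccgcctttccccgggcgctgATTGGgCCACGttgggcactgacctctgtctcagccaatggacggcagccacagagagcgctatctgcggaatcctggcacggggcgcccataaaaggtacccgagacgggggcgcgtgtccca

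The 2 core parts of the Hrd1 complex changed in opposite directions. Syvn1, the ligase Hrd1, stood at 111, 105 and 99.7 CPM in the DMSO libraries and 133, 135 and 131 CPM in the FSK libraries. It was higher in each FSK library (0.34 ± 0.06, adjusted p = 0.00216), with the opposite-strand gene Mrpl49 at 14.7% of its counts. Sel1l, the scaffold that holds the ligase, stood at 143, 158 and 164 CPM in the DMSO libraries and 122, 129 and 124 CPM in the FSK libraries. It was lower in each FSK library (-0.31 ± 0.06, adjusted p = 0.00607) and lost the call after removal of the length trend, at -0.12 (6.70e-05 to 0.0643 over the 14 settings). The FPKM ratio of Sel1l to Syvn1 was 1.17 ± 0.142 in DMSO and 0.745 ± 0.0146 in FSK, a pair chosen after its values were seen. Among other membrane ligases, Rnf5 rose by 0.43 ± 0.06 (adjusted p = 0.00131) log2 and Rnf185, its close relative, by 0.31 ± 0.06 (adjusted p = 0.00504). March6 fell by 0.37 ± 0.09 (adjusted p = 0.0140), with the call lost without DMSO replicate 2 (0.00101 to 0.0504).

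Selenos, a selenoprotein that ties the extraction motor Vcp to the ER membrane, stood at 66.2, 64.4 and 62.3 CPM in the DMSO libraries and 98.5, 100.4 and 91.3 CPM in the FSK libraries. The FSK libraries were all higher than the DMSO libraries, and the difference passed (0.59 ± 0.06, adjusted p = 0.000161). Ufd1, a cofactor of Vcp, rose by 0.41 ± 0.06 (adjusted p = 0.00131) log2, while its partner Nploc4 did not pass (-0.05 ± 0.05, adjusted p = 0.463). Vcp itself rose by 0.14 ± 0.04 (adjusted p = 0.0337), a call lost without DMSO replicate 2 or 3 or FSK replicate 1, 2 or 3 and under both limma settings, where its log2 fold change was 0.07 (0.0152 to 0.157 over the 14 settings). Ubxn6, another Vcp cofactor, rose by 0.31 ± 0.08 (adjusted p = 0.0160) and lost its call without DMSO replicate 2 or 3 or FSK replicate 1 or 3 (0.00158 to 0.0636). Of the derlins, rhomboid-like proteins of the exit channel, Derl1 did not pass (0.02 ± 0.05, adjusted p = 0.779) and Derl2 rose by 0.19 ± 0.06 (adjusted p = 0.0499), at the edge of the threshold. Its call was lost in 11 of the 14 settings, among them each left-out library, no expression filter, removal of the length trend and both limma settings, where its log2 fold change was 0.12 (0.0405 to 0.164). LOC103694875, described in the table as derlin-3, had under 1 CPM in each library and did not pass (-0.17 ± 0.50, adjusted p = 0.821). Bcap31, an export and quality-control receptor, rose by 0.36 ± 0.05 (adjusted p = 0.00136).

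Fbxo2, the F-box protein that brings the SCF ligase to high-mannose glycans, showed the largest fold of the role but a low level, with 2.40, 2.09 and 2.35 CPM in the DMSO libraries and 4.73, 5.18 and 5.84 CPM in the FSK libraries. FSK libraries lay wholly above DMSO libraries (1.20 ± 0.17, adjusted p = 0.000940), and the mean level rose from 1.75 to 3.84 FPKM. Fbxo6, its relative, rose by 0.32 ± 0.06 (adjusted p = 0.00473) log2. Of the other SCF parts, Rbx1, the RING subunit, fell by 0.21 ± 0.07 (adjusted p = 0.0372), a call lost without DMSO replicate 1 or 2 or FSK replicate 1, 2 or 3 (0.00426 to 0.124 over the 14 settings). Cul1 (-0.31 ± 0.11, adjusted p = 0.0579) and Skp1 (0.09 ± 0.07, adjusted p = 0.372) did not pass. Among the cytosolic carriers of ubiquitinated substrates, Rad23b fell by 0.29 ± 0.05 (adjusted p = 0.00240), and Ubqln1 (0.01 ± 0.04), Ubqln2 (0.20 ± 0.09) and Ubqln4 (0.03 ± 0.07) did not pass. Stub1, the ligase CHIP, which ubiquitinates clients of Hsp70 and Hsp90, fell by 0.24 ± 0.05 (adjusted p = 0.00584), with the opposite-strand gene Jmjd8 at 27.3% of its counts. Of the 7 ubiquitin-conjugating enzymes tested, Ube2g2 rose by 0.31 ± 0.06 (adjusted p = 0.00610) and the other 6 did not pass, with log2 fold changes from -0.16 (Ube2j1) to 0.02 (Ube2d1). The remaining tested genes, Yod1, Plaa, Nsfl1c, Atxn3, Ngly1 and Ube4b, did not pass either.

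COPII export had 2 rises (background 19.6%) and 7 falls (background 19.8%) among 12 tested genes, and 3 did not pass, with a median of -0.15. Their summed level was 1784 ± 39.8 CPM in DMSO and 1814 ± 34.6 CPM in FSK. The 2 L-type lectins among them changed in opposite directions. Lman1, ERGIC-53, which carries cargo such as clotting factors forward, stood at 52.3, 54.6 and 60.0 CPM in the DMSO libraries and 34.6, 37.1 and 34.1 CPM in the FSK libraries. Lman1 was lower in every FSK library, a 1.58-fold fall (-0.66 ± 0.07, adjusted p = 0.000322). Lman2, VIP36, a lectin that cycles between the ER and the Golgi, stood at 434, 422 and 387 CPM in the DMSO libraries and 563, 603 and 599 CPM in the FSK libraries. Lman2 was higher in every FSK library, a 1.42-fold rise (0.51 ± 0.06, adjusted p = 0.000324). The FPKM ratio of Lman1 to Lman2 was 0.130 ± 0.0174 in DMSO and 0.0576 ± 0.00251 in FSK. Sec23a, of the inner coat, stood at 69.9, 71.0 and 80.9 CPM in the DMSO libraries and 54.0, 51.1 and 50.9 CPM in the FSK libraries. The groups did not overlap, with FSK lower (-0.51 ± 0.07, adjusted p = 0.000955). Sec23b, its paralog, had 81.4 ± 2.93 CPM in DMSO and 90.1 ± 3.20 CPM in FSK and did not pass (0.15 ± 0.06, adjusted p = 0.0670), though it passed as a rise after removal of the length trend (0.0417 to 0.233 over the 14 settings). The FPKM ratio of Sec23a to Sec23b was 0.621 ± 0.0627 in DMSO and 0.394 ± 0.0260 in FSK. Of the 4 cargo-binding Sec24 forms, Sec24a fell by 0.53 ± 0.10 (adjusted p = 0.00506) log2 and Sec24d by 0.14 ± 0.05 (adjusted p = 0.0469), Sec24c lay just outside the threshold (-0.13 ± 0.05, adjusted p = 0.0501), and Sec24b was at 0.02 ± 0.05, adjusted p = 0.807. Sec24d lost its call in 10 of the 14 settings, among them each left-out library, DESeq2 size factors, no expression filter and removal of the length trend, where its log2 fold change was -0.08 (0.00928 to 0.192). Sec24c passed without DMSO replicate 3, with DESeq2, under the FPKM minimum and under both limma settings (0.00581 to 0.675). In the outer coat, Sec13 fell by 0.26 ± 0.06 (adjusted p = 0.00832) and Sec31a by 0.16 ± 0.05 (adjusted p = 0.0449), the latter lost without DMSO replicate 1 or 2 or FSK replicate 1 or 2, with DESeq2 size factors and after removal of the length trend, where its log2 fold change was -0.05 (0.00461 to 0.563). Sar1b, the GTPase that starts coat assembly, rose by 0.28 ± 0.06 (adjusted p = 0.00903). Preb, the exchange factor that loads Sar1 with GTP, fell by 0.33 ± 0.09 (adjusted p = 0.0167), lost its call without DMSO replicate 2 or FSK replicate 1 or 2 (0.00224 to 0.0653), and shares its position with the opposite-strand gene Abhd1, which had 101% of its counts. The 7 falls of this role became 4 without DMSO replicate 2, without FSK replicate 1 or without FSK replicate 2.

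Stress sensing and signalling had 4 rises (background 19.6%) and 8 falls (background 19.8%) among 22 genes, and 10 did not pass (median -0.19). Of the 3 sensors of the unfolded protein response, 2 fell and 1 did not pass. Ern1, the kinase and RNase Ire1, stood at 28.9, 32.1 and 33.8 CPM in the DMSO libraries and 18.7, 21.1 and 19.3 CPM in the FSK libraries. Its FSK libraries were all below its DMSO libraries, a 1.60-fold fall (-0.68 ± 0.09, adjusted p = 0.000894). Atf6, a membrane-bound transcription factor, stood at 58.2, 68.0 and 70.0 CPM in the DMSO libraries and 47.1, 52.8 and 51.8 CPM in the FSK libraries and was also lower in each FSK library (-0.37 ± 0.09, adjusted p = 0.00967). Eif2ak3, the kinase Perk, had 23.6 ± 1.66 CPM in DMSO and 23.6 ± 0.609 CPM in FSK, overlapped between the groups and did not pass (0.00 ± 0.09, adjusted p = 0.991). Mbtps1 and Mbtps2, the Golgi proteases that release Atf6, fell by 0.21 ± 0.05 (adjusted p = 0.00907) and 0.89 ± 0.17 (adjusted p = 0.00444) log2. Mbtps1 lost its call after removal of the length trend, at -0.12 (0.000660 to 0.0884 over the 14 settings). Atf6b, the paralog of Atf6, did not pass (0.06 ± 0.07, adjusted p = 0.537). Xbp1, whose mRNA Ire1 splices into the form that encodes the active factor, stood at 65.0, 59.2 and 57.8 CPM in the DMSO libraries and 66.6, 70.6 and 76.0 CPM in the FSK libraries. Its FSK libraries were just above the DMSO range (0.23 ± 0.07, adjusted p = 0.0374), and the call was lost in 9 of the 14 settings, among them those without DMSO replicate 2 or 3 or FSK replicate 2 or 3, no expression filter, removal of the length trend and both limma settings (0.0179 to 0.124). The table gives 1 value per gene, so spliced and unspliced Xbp1 mRNA are not separated.

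Ppp1r15a, Gadd34, directs a phosphatase to eIF2-alpha and so reverses the translational block that Perk and related kinases set. It stood at 48.5, 48.1 and 47.1 CPM in the DMSO libraries and 119, 118 and 120.1 CPM in the FSK libraries. The replicates of each group lay close together and the FSK libraries were 2.48-fold higher (1.31 ± 0.05, adjusted p = 1.22e-06), the largest rise among the members. Its promoter is shown because its 180 upstream bases hold the palindromic cAMP response element, TGACGTCA, in capitals.
Ppp1r15a, GRCr8 chr1:105139597-105139776, minus strand: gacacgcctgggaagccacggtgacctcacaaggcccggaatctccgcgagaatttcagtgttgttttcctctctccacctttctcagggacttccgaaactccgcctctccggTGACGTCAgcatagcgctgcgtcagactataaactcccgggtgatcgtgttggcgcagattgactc

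Of the other 3 eIF2-alpha kinases, 1 rose, 1 fell and 1 did not pass. Eif2ak1, the heme-regulated kinase, rose by 0.26 ± 0.06 (adjusted p = 0.0108) log2 and lost its call without DMSO replicate 2 and with limma on log2(FPKM + 1) (0.00271 to 0.0515 over the 14 settings). Eif2ak4, Gcn2, which responds to amino acid shortage, fell by 0.27 ± 0.06 (adjusted p = 0.0102). It lost the call after removal of the length trend, at -0.01 (0.00267 to 0.933), and the opposite-strand gene Srp14, which rose, had 124% of its counts. Eif2ak2, the double-stranded RNA kinase, did not pass (-0.38 ± 0.18, adjusted p = 0.126), nor did Eif2s1, their substrate (-0.17 ± 0.07, adjusted p = 0.0801). In the kinase arm that runs from Ire1 to JNK, 2 genes fell and 1 rose. Map3k5, the kinase Ask1, fell by 1.04 ± 0.13 (adjusted p = 0.000591), and Mapk8, JNK1, by 0.66 ± 0.14 (adjusted p = 0.00744). Traf2, the adaptor that binds Ire1, did not pass (-0.03 ± 0.06, adjusted p = 0.789), nor did Mapk9, JNK2 (-0.36 ± 0.14, adjusted p = 0.0677), or the scarce Mapk10, JNK3 (-0.96 ± 0.71, adjusted p = 0.320). Map2k7, a kinase that activates JNK, rose by 0.51 ± 0.12 (adjusted p = 0.00932). Casp12, a caspase associated with the rodent ER, stood at 5.69, 6.45 and 10.9 CPM in the DMSO libraries and 3.41, 2.24 and 3.30 CPM in the FSK libraries. DMSO replicate 3 was the highest library, and all FSK libraries were lower than any DMSO library (-1.36 ± 0.28, adjusted p = 0.00606). The calpains Capn1 (0.12 ± 0.08) and Capn2 (-0.02 ± 0.06) and Wfs1 (-0.14 ± 0.09) did not pass. Without DMSO replicate 2 the role had 2 rises in place of 4.

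Cytosolic chaperones and their partners, which KEGG includes because ERAD substrates meet them, had 3 rises (background 19.6%) and 2 falls (background 19.8%) among 19 tested genes. The other 14 did not pass. The median was 0.15, and the summed level was 5427 ± 212 CPM in DMSO and 6058 ± 59.3 CPM in FSK. Hsph1, Hsp110, the nucleotide exchange factor of cytosolic Hsp70, stood at 98.6, 85.6 and 80.8 CPM in the DMSO libraries and 165, 169.7 and 156 CPM in the FSK libraries. Each FSK library lay far above the DMSO range, a 1.85-fold rise (0.89 ± 0.08, adjusted p = 0.000102). Hspa8, the constitutive Hsp70, stood at 915, 842 and 753 CPM in the DMSO libraries and 1193, 1143 and 1261 CPM in the FSK libraries. The FSK libraries were all above the DMSO libraries (0.52 ± 0.07, adjusted p = 0.00105). Dnajb1, an Hsp40 that works with both, rose by 0.37 ± 0.07 (adjusted p = 0.00475) log2. The promoter of Hsph1 is shown for its heat shock element, GAA, TTC and GAA with 2 bases between each, which lies on the strand opposite the gene and is printed here as its reverse complement, with the fixed letters in capitals.
Hsph1, GRCr8 chr12:10427188-10427367, plus strand: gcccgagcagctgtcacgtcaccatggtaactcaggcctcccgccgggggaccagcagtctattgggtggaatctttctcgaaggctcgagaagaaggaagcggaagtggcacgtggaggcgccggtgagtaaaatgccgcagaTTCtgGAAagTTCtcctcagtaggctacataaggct

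Hspa1b, the stress-inducible Hsp70, had 27.7 ± 7.64 CPM in DMSO and 34.3 ± 2.25 CPM in FSK and did not pass (0.31 ± 0.17, adjusted p = 0.194), and its position overlaps RT1-CE4 and RT1-CE7, with 118% and 57.3% of its counts. Cryab, alpha-B crystallin, had 162 ± 22.3 CPM in DMSO and 184 ± 8.47 CPM in FSK and did not pass (0.19 ± 0.10, adjusted p = 0.155). Both passed as rises without DMSO replicate 1 (adjusted p 0.00301 to 0.469 for Hspa1b and 0.0193 to 0.421 for Cryab over the 14 settings). Leaving out that library raised the number of rises in the role from 3 to 9, so this count depends on it. Hsp90aa1, the inducible cytosolic Hsp90, fell by 0.44 ± 0.08 (adjusted p = 0.00286) log2, while Hsp90ab1 did not pass (0.09 ± 0.04, adjusted p = 0.123). The FPKM ratio of Hsp90aa1 to Hsp90ab1 was 0.0525 ± 0.00574 in DMSO and 0.0364 ± 0.00296 in FSK. LOC103692716, a second gene that the table describes as Hsp90-alpha, fell by 0.57 ± 0.15 (adjusted p = 0.0202), which was lost without DMSO replicate 3 or FSK replicate 2 or 3 (0.000111 to 0.0774). These near-identical copies may share reads, and LOC103692716 also overlaps Dync1h1, so the values of the pair are uncertain. Without DMSO replicate 3, FSK replicate 2 or FSK replicate 3 the role had 1 fall in place of 2. The co-chaperones Dnaja1, Dnaja2, Dnajb2, Dnajb12, Dnajc5, Bag1, Bag2 and Hspbp1 and the Hsp70 relatives Hspa2, Hspa1l and Hspa4l did not pass, with log2 fold changes from -0.14 to 0.28.

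Ppa1 fits none of the roles. It encodes inorganic pyrophosphatase, is placed in the group by the table's annotation and did not pass (-0.07 ± 0.05, adjusted p = 0.292). The 10 members that were not tested had few or no counts. Lman1l, Sel1l2, Ube2d4, Svip, Dnajc5b, Dnajc5g and Cryaa had 0 counts in all 6 libraries. Sec31b reached 14 counts in DMSO replicate 2, 8 counts in FSK replicate 3 and 0 elsewhere. For LOC108348108, described in the table as heat shock 70 kDa protein 1A, the DMSO libraries gave 7, 710 and 0 counts and the FSK libraries 7, 2 and 9, so nearly all of its counts came from DMSO replicate 2. The gene name Sar1a was not matched among the members and is not analysed here.

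The upstream sequences were searched for letters known from these responses, on both strands, in the 250 bases before any start listed in RefSeq for 125 of the 156 members (GRCr8) and for 27457 rat genes in all. The ER stress response element occurred in 7 members, 5.6% of those matched, and in 0.0765% of all genes. The 7 were Hspa5, Hsp90b1, Canx, Calr, Dnajc3, Ero1b and Xbp1. Of these, Xbp1 rose, Hsp90b1, Canx and Ero1b fell, and the other 3 did not pass. Among all 125 members matched, 26 rose, 37 fell and 56 did not pass. Some calls named in this paragraph, such as those of Xbp1, Canx and Vcp, were lost under other settings, as given under their roles. The form II element occurred in Herpud1 and Hyou1, 1.6% of the members matched and 0.051% of all genes. TGACGTGG, the core of the unfolded protein response element, occurred in 9 members (7.2%) and in 0.594% of all genes. Among those 9, Vcp and Ube2g2 rose, Sec23a, Mapk8 and Ckap4 fell, and 4 did not pass. TGACGTCA occurred in 3 members (2.4%) and in 1.78% of all genes: Ppp1r15a, which rose, and Hsp90ab1 and Mapk10, which did not pass. The heat shock element occurred in Hspa8, Hsph1 and Cul1, 2.4% of the members matched and 0.663% of all genes. CCAAT alone occurred in 48.8% of the members and 36.1% of all genes. The ER stress response element contains CCAAT, and 1 copy of TGACGTGG in Hyou1 overlaps a form II element. A match describes letters in a window and is not evidence of binding.

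Genes of the same route outside the KEGG group were read from 5 lists. The background for their counts was 19.6% that rose and 19.8% that fell over all genes tested. Of 12 tested ER stress targets, 2 rose, 3 fell and 7 did not pass. Pdia5, another disulfide isomerase, fell by 0.96 ± 0.17 (adjusted p = 0.00266) log2 and Dnajb4 by 0.72 ± 0.09 (adjusted p = 0.000499), whereas Selenok, a selenoprotein of the ER membrane, rose by 0.55 ± 0.06 (adjusted p = 0.000337). Sdf2l1 (-0.16 ± 0.08), Creld2 (-0.09 ± 0.06), Manf (0.07 ± 0.06) and Dnajb9 (0.33 ± 0.13), which the unfolded protein response is known to raise, did not pass. For collagen folding, 5 of 16 rose and 6 fell. Plod2, a lysyl hydroxylase, fell by 0.74 ± 0.07 (adjusted p = 0.000140) and the prolyl isomerase gene Fkbp14 by 0.32 ± 0.07 (adjusted p = 0.00889), while Fkbp7 rose by 0.64 ± 0.13 (adjusted p = 0.00609). In the signal recognition particle and signal peptidase, 2 of 10 rose and 3 fell, with Srp14 higher by 0.36 ± 0.05 (adjusted p = 0.00137), and Spcs3 and Srp54a lower by 0.56 ± 0.15 (adjusted p = 0.0173) and 0.55 ± 0.15 (adjusted p = 0.0180). Spcs3 lost its call without DMSO replicate 3 or FSK replicate 2 or 3 (adjusted p 0.000183 to 0.0597 over its other settings) and Srp54a without DMSO replicate 3 or FSK replicate 2 or 3 (0.000425 to 0.0708). Golgi-to-ER retrieval, the return path for escaped ER proteins, had 1 rise and 9 falls among 18 genes and a median of -0.13. Arcn1, the delta subunit of the COPI coat, fell by 0.47 ± 0.07 (adjusted p = 0.00161) log2, the cargo receptor Tmed7 by 0.39 ± 0.11 (adjusted p = 0.0201) and the coat subunit Copz2 by 0.37 ± 0.12 (adjusted p = 0.0436). Tmed7 lost its call without FSK replicate 2 or 3 (0.000738 to 0.0855 over its other settings) and Copz2 without DMSO replicate 1 or 3 or FSK replicate 1, 2 or 3 and with no expression filter (0.0129 to 0.124). Of the KDEL receptors, Kdelr2 fell by 0.18 ± 0.05 (adjusted p = 0.0287) and Kdelr3 by 0.24 ± 0.05 (adjusted p = 0.00583), and Kdelr1 did not pass (-0.05 ± 0.05, adjusted p = 0.498). Lipid-linked oligosaccharide synthesis, which builds the glycan that the oligosaccharyltransferase transfers, had 6 rises and 3 falls among 23 genes. Alg14 rose by 0.51 ± 0.08 (adjusted p = 0.00129), Alg2 by 0.48 ± 0.06 (adjusted p = 0.000837) and Alg1 by 0.47 ± 0.09 (adjusted p = 0.00512). A further 14 did not pass, among them Dpagt1 (-0.02 ± 0.06, adjusted p = 0.838), Alg13 (-0.08 ± 0.15, adjusted p = 0.701) and Alg11 (0.23 ± 0.10, adjusted p = 0.104).

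Some measures of the libraries moved with the groups. Transcript length, as implied by the ratio of counts to FPKM, had a median of 1879 bases for members that rose and 2916 bases for members that fell, and of 2210 and 2989 bases for all genes that rose and fell. With the trend between length and change removed, 29 members rose (background 20.8%) and 39 fell (background 17.9%). The TMM factors were between 1.01 and 1.04 in DMSO and between 0.964 and 0.988 in FSK. Library totals overlapped, between 72146807 and 79992081 counts in DMSO and between 72661518 and 78976194 counts in FSK. Summed astroglial markers were between 2941 and 3052 CPM in DMSO and between 4159 and 4190 CPM in FSK, mostly from Vim (mean 2144 and 2696 CPM). The other markers on that list did not move together. Gfap was at 3.44 FPKM in DMSO and 36.1 FPKM in FSK, S100b at 103 and 350 FPKM and Aldoc at 192 and 336 FPKM. Nes was lower in FSK, at 61.7 and 31.5 FPKM, as was Slc1a3, at 1.05 and 0.384 FPKM. Summed neuronal markers were between 19.5 and 23.3 CPM in DMSO and between 11.7 and 14.6 CPM in FSK, nearly all from Syn1, and the defining neuronal marker Rbfox3 was at 0. Endothelial markers were between 1.53 and 1.70 CPM in DMSO and between 0.552 and 0.996 CPM in FSK, with Cdh5 at 0 (3 of 4 listed genes matched). Microglial markers summed to at most 0.814 CPM. Fibroblast markers were between 277 and 332 CPM in DMSO and between 204 and 218 CPM in FSK, nearly all from Pdgfra, with Dcn and Lum at or near 0. The part of these marker differences in the members' changes was not tested.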

How the data were processed

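The table was made by the submitters from paired-end RNA-seq of C6 cells, 3 DMSO and 3 FSK libraries. Per the submitters' processing notes, the tools were cutadapt, HISAT2, StringTie, edgeR and DESeq2 and the build Rnor_6.0; the sources used here give no settings, annotation release or strand rule. The authors deposited whole-number counts and FPKM values per gene, both so named per the file headers, and FPKM is 0.0001 where the count is 0. FSK was compared with DMSO on the deposited counts, 72146807 to 79992081 per library, by edgeR's quasi-likelihood test (version 4.0.16, R 4.3.3) after filterByExpr at its defaults and TMM scaling, with no block. Benjamini-Hochberg adjustment ran over the 14166 genes kept, at a threshold of 0.05. Errors of log2 fold changes are standard errors from the quasi-likelihood F statistic, and CPM and FPKM are given as mean ± SD (n = 3). The script was tested on simulated data.

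The roles were assigned by gene name, and 4 genes without a standard symbol were added from their descriptions after the table was read. The members, roles and lists were chosen with earlier results of these data known. The rule named, in each role, up to 4 genes that rose and up to 4 that fell with the largest changes and at least 5 FPKM in the higher group, plus 30 fixed genes and up to 3 changed genes of each further list; every other member named was chosen after its values were seen, to complete a complex or family. A few members are counted in the totals but not reported here by name. FPKM ratios are ratios of 2 genes within a library and have no test. Of the genes on the further lists, Crtap, Srp54, Srp72, Srpr, Srprb, Copb2 and Copg1 were not matched and are not analysed here. Alternatives were DESeq2 1.42.0 size factors, DESeq2 itself, no expression filter, a minimum of 5 FPKM, limma 3.58.1 on log2(FPKM + 1) and log2(FPKM + 0.1), a 1.5-fold minimum, a replicate block, removal of a length trend, and leaving out each library.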

Additional observations from a re-analysis of the deposited data

How the results depend on the processing

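Of 80 named genes with a test, 52 kept their direction and their side of the threshold under every alternative that tested them, and 28 did not. The 1.5-fold minimum was left out of this count. The 1 change of sign of a called gene was Stt3a, at 0.0974 log2 with the length trend removed (adjusted p = 0.239, and 0.0166 to 0.239 over its alternatives). Removal of the length trend uses offsets fitted to all genes and also moved the members' median from -0.07 to -0.0367. That median was -0.1175 with limma on log2(FPKM + 1), -0.1349 on log2(FPKM + 0.1) and -0.0446 with at least 5 FPKM, where all genes tested had -0.0554, -0.0767 and 0.0294. A 1.5-fold minimum left 4 rises and 11 falls in all: 0 and 0 among luminal chaperones, 0 and 2 in disulfide exchange, 0 and 1 in translocation, 0 and 0 in glycosylation, 2 and 2 in ERAD, 0 and 1 in COPII export, 1 and 5 in stress sensing, and 1 and 0 among cytosolic chaperones. Both limma settings gave 5 falls among luminal chaperones, and limma on log2(FPKM + 1) gave 2 rises in stress sensing. With at least 5 FPKM, 4 stress-sensing genes fell, since fewer genes were tested.

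Deviations from the group mean correlated at -0.0814, 0.00846 and -0.104 between same-numbered libraries. Between libraries of unlike number they correlated at -0.0175 to 0.098. With 3 libraries per group, these values cannot show whether a replicate number marks a shared culture or day. With a replicate block, 2160 genes rose and 2165 fell over all genes tested, 23 and 38 of them members, COPII export kept 4 falls and the cytosolic chaperones 1. The members whose call was lost under the block were Canx, Ddost, Derl2, LOC103692716, Preb, Prkcsh, Rbx1, Sec24d, Sec31a, Stt3a, Vcp and Xbp1, and Spcs3 and Copz2 of the further lists lost theirs. Leaving out 1 library at a time gave 21 to 33 rises and 36 to 44 falls over all members. By role, it gave 4 to 7 falls in COPII export, 1 to 2 falls and 3 to 9 rises among cytosolic chaperones, 1 to 3 rises in glycosylation, 1 to 4 falls among luminal chaperones, 2 to 4 rises in stress sensing, and 1 to 2 rises in translocation. The cause of these shifts was not tested.

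The biological coefficient of variation over all genes was 20.8%. What limits the precision for single genes such as Hspa5 or Calr was not tested.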
